A study of Caenorhabditis elegans with 2 samples.

Results

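The regions described here are the peaks of PBRM-1 that lie at the promoter of 1 gene only, close to its annotated 5′ end. They were taken from the deposited list that the authors made from both replicates, here the series list, by position alone. A peak was a member when it lay on an autosome and its summit fell within 1000 bp upstream to 200 bp downstream of a transcript 5′ end of exactly 1 protein-coding gene. The nearest 5′ end of that gene had to be at most 300 bp away, and summits within 500 bp of a tRNA, snoRNA, snRNA or miRNA gene were left out. Of 3243 peaks, 2734 were on autosomes, 1515 of these lay in a promoter window, 1030 in the window of 1 gene only, and 571 of those within 300 bp. After 50 were dropped beside small noncoding RNA genes, 521 members at 490 genes remained, which is 19.1% of the autosomal peaks. The other autosomal peaks are 386 single-gene promoter peaks further upstream, 458 peaks in the windows of 2 or more genes, and 1369 remaining peaks.

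The peaks came from chromatin immunoprecipitation and sequencing of whole Caenorhabditis elegans young adults, 64.5 h old, grown from L1 larvae that had been starved after bleaching. All worms were of the strain RW12226 and carried st12226[pbrm-1::TY1::EGFP::3xFLAG] on chromosome I, a tag inserted by CRISPR at the gene itself, and the antibody recognised GFP. There was 1 group of 2 biological replicates, with no contrast between conditions. The labels name a control experiment, which was not analysed here, so signal that does not depend on the tag was not tested. Whole worms were used, so a peak does not say in which tissue PBRM-1 was bound. Replicate 1 had 1370 peaks and replicate 2 had 2173 in their own thresholded lists, and the read depth behind them is unknown. All coordinates are on the ce11 build, counted from 1.

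PBRM-1 is the polybromo subunit of PBAF, a form of the SWI/SNF complex that uses ATP to slide and evict nucleosomes, and its bromodomains can bind acetylated histone tails. Promoters of active genes are typical sites of such complexes, because the DNA just upstream of a start site has to be kept clear of nucleosomes. In C. elegans many mRNAs are trans-spliced, so that the annotated 5′ end of a gene is often a splice acceptor that lies downstream of the site where transcription starts.

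The sequences of the strongest members are printed here, and other members differed from them in signal, words and repeated DNA, as given below. The windows below reach up to 100 bases to each side of the summit, are cut where an annotated exon begins, and run in the direction of the gene. They belong to 7 of the 8 strongest members. The bases are those of the RefSeq copy of WBcel235. Capitals mark the letters AGTGTAC on either strand, as well as the letters AGCGCGC and the letters TGACGCA. These 3 words of 7 letters recur in the strongest sites and were picked from 15 such words after those sites had been seen.
rpl-3, chrIII:3867475-3867675, plus strand: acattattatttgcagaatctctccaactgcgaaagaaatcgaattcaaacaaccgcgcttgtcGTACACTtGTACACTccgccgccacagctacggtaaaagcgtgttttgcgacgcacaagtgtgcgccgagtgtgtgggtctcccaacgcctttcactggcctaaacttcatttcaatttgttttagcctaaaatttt
K07C5.13, chrV:10341920-10342054, plus strand: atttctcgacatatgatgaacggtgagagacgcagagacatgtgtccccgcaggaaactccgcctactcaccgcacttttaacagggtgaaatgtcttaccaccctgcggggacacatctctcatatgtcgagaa
cdc-48.1, chrII:10563470-10563670, minus strand: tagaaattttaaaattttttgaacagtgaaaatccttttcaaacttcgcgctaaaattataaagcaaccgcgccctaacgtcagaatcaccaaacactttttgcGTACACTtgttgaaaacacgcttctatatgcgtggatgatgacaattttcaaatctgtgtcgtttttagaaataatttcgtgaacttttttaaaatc
mog-4, chrII:14561763-14561963, minus strand: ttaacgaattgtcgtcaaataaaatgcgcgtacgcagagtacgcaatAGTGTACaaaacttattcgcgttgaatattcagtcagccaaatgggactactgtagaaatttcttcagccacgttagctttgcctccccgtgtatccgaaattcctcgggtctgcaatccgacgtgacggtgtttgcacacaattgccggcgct
Y39B6A.43, chrV:18967830-18967904, minus strand: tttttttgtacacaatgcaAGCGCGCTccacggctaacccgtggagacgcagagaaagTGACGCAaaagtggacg
cox-5A, chrIII:12905103-12905303, plus strand: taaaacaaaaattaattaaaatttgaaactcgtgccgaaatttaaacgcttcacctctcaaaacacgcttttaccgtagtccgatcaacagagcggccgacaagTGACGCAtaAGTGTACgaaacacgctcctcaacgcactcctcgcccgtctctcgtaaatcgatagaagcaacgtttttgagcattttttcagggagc
eelo-2, chrIV:17249800-17250000, plus strand: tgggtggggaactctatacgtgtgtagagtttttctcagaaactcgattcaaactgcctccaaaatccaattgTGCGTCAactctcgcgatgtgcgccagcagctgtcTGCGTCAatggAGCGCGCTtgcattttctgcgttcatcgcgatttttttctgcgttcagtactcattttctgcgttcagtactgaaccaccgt

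Each of the 3 words was found in 5 of the 15 strongest members. Among the remaining 506 members AGTGTAC occurred in 8 (1.58%), AGCGCGC in 29 (5.73%) and TGACGCA in 24 (4.74%). In 12388 single-gene promoters without a summit, read around the members' median position of 113 bp upstream of the 5′ end, the shares were 1.20%, 0.718% and 1.08%. All shares are for windows of 100 bp to each side of the summit. AGTGTAC was thus nearly as rare in weaker members as in promoters without a peak, whereas the other 2 words were more frequent there too. The K07C5.13 window holds none of the 3 words but is built as an inverted repeat, with 15 bases on one side that match the reverse complement of 15 bases on the other across a gap of 49 bases.

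The 15 strongest members were peaks of both replicates' own lists. The signal is the authors' own value, of unstated scaling, and it is used only to rank and describe peaks. The strongest member was the promoter of rpl-3, a protein of the large ribosomal subunit, with a signal of 1412 in the series list, 611 in replicate 1 and 813 in replicate 2. K07C5.13 followed with 1169 in the series list (503 in replicate 1 and 627 in replicate 2), at chrV:10341846-10342312. The promoter of cdc-48.1, which encodes an AAA ATPase that extracts ubiquitylated proteins, reached 835 (319 in replicate 1 and 523 in replicate 2), at chrII:10563451-10563702. These values stand far above the median member, whose signal was 91.5, with quartiles of 72.1 and 127. The next were mog-4, a DEAH-box splicing factor gene (682), Y39B6A.43 (628), and cox-5A, a cytochrome c oxidase subunit gene (622). They were followed by eelo-2 (507), cox-5B, another cytochrome c oxidase subunit gene (480), gpa-1, a G protein alpha subunit gene (454), and ntl-11, a CCR4-NOT subunit gene (446). The remaining 5 were tos-1 (444), the histone gene his-37 (439), the phosphoenolpyruvate carboxykinase gene pck-2 (392), the ubiquitin ligase gene wwp-1 (389) and the Integrator subunit gene ints-4 (366). Ribosomal, mitochondrial, splicing and protein turnover genes thus stand side by side among the strongest sites. In 12 of the 15 the summit lay outside the annotated gene, and in gpa-1, pck-2 and ints-4 inside it. At wwp-1 the summit lay in an exon of another annotated gene.

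Some strong sites lie in repeated DNA, where short reads may not be placed with certainty. Exact runs of 36 bases that occur again elsewhere in the genome made up 53% of the window at K07C5.13, 41.0% at mog-4, 21.7% at gpa-1, 48.2% at pck-2 and 3.61% at ints-4. At pck-2 the run over the summit occurred 131 times in the genome, and at mog-4 it occurred 7 times. The windows of the other 10, rpl-3 and cdc-48.1 included, were unique by this measure. Of all 521 members, 36 (6.91%) held any repeated run and 11 (2.11%) were repeated over 50% or more of the window. How repeated reads were treated by the authors is not stated, and the effect on the signal was not tested. his-37 encodes a histone H4, one of many near-identical copies, so reads from the gene itself may be placed with less certainty. The window at its summit was unique by this measure.

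**Figure D1:**
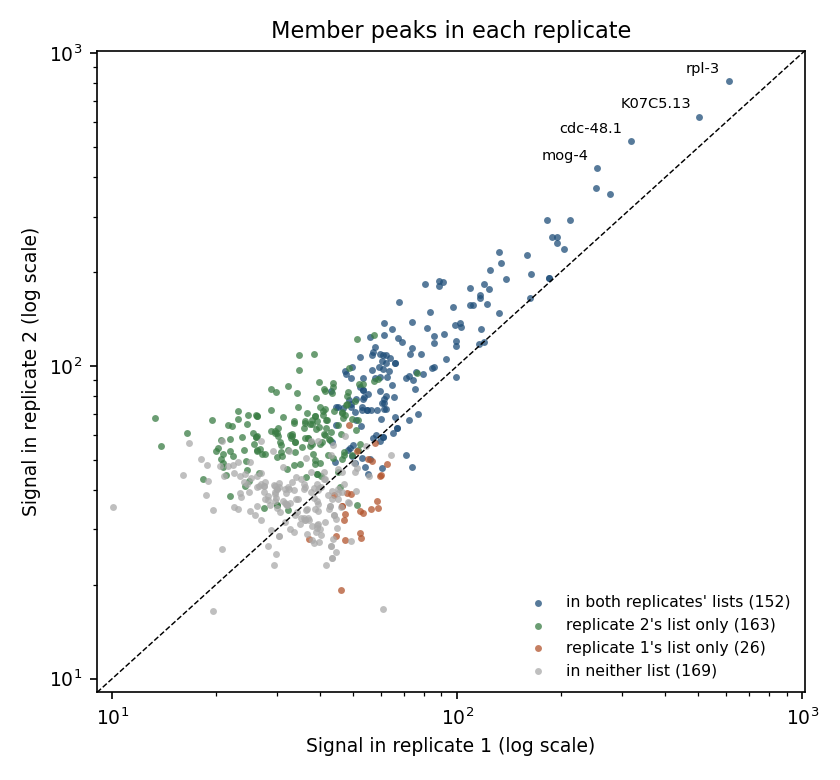
Signal of each member in replicate 1 (horizontal axis, log scale) and replicate 2 (vertical axis, log scale), for the 510 members with a value in each replicate's ranked list. Colours give the replicates' thresholded lists that hold the peak, and the dashed line marks equal signals. The strong members lie in a narrow band in both lists, and 395 of the 510 points (77.5%) are higher in replicate 2.

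The strong members were mostly in both replicates' own thresholded lists, and the weak ones mostly were not. The longer ranked lists, of 54625 peaks in replicate 1 and 48976 in replicate 2, both held an overlapping peak at 510 members. A peak of replicate 1's own list overlapped 179 members (34.4%), a peak of replicate 2's list 321 (61.6%), and 152 (29.2%) had both, while 173 (33.2%) had neither. Only replicate 1's list held 27 members, and only replicate 2's list held 169. Of the 130 strongest members, with signals of 127 or more, 86.2% were in both lists. Of the next 130, 34 (26.2%) were in both. The share was 1.54% and 3.05% in the 2 weaker groups of 130 and 131 members, where some overlaps may be with a neighbouring peak, as given below. Presence in both lists was therefore mostly a property of strong members, as the plot by signal shows. Replicate 2's own list still held 80.8% of the second group and 46.2% of the third. The series list and these lists come from the same 2 libraries, so the signal and list membership are not independent. Across 510 members the signals of the replicates had a Spearman's rho of 0.565 and a Pearson's r of 0.937, which describes peaks that share 2 libraries and were selected by the authors' threshold. The strongest members found in 1 list only were Y43F8B.2 (signal 191) and gtsf-1, a small RNA pathway gene (191), followed by kin-14 (160), pus-1 (153) and Y18D10A.4 (153), and all 5 were in replicate 2's list. The strongest member in neither was the splicing factor gene rsp-6, with 119 in the series list, 55.6 in replicate 1 and 44.3 in replicate 2. It was followed by the fatty acid binding protein gene lbp-9 (119), nurf-1, which encodes a subunit of the NURF remodelling complex (118), mstr-1 (107) and rsbp-1 (106).

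**Figure D2:**
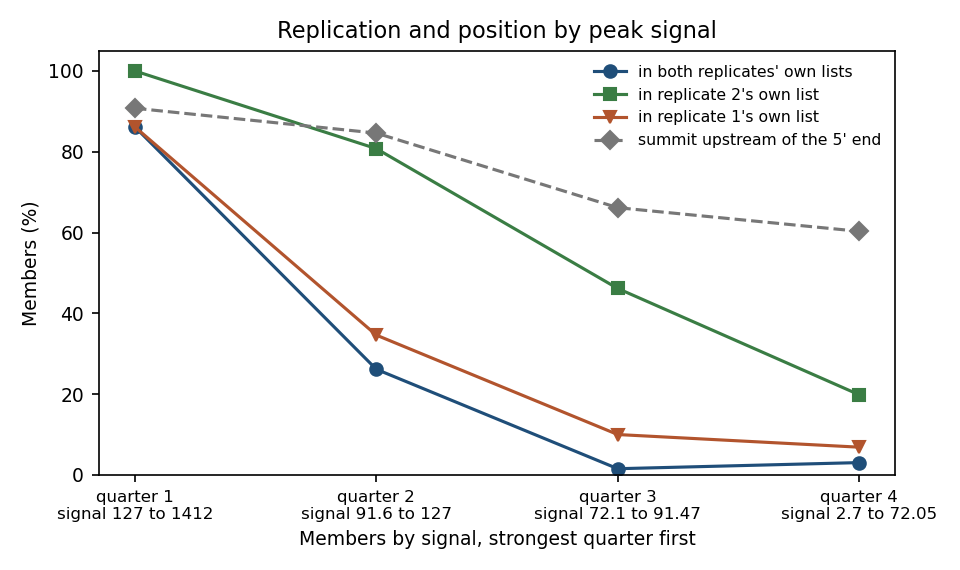
Members in 4 groups by signal, strongest at the left (horizontal axis), with the percentage found in each replicate's own list, in both, and with the summit upstream of the 5′ end (vertical axis). All 4 percentages are lowest in the 2 weaker groups, and the share in both lists was 86.2% in the strongest and 3.05% in the weakest group.

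Members were weaker and less often in both replicates' lists than peaks in promoter windows that several genes share. Of the members 29.2% were in both replicates' lists, against 46.1% of peaks in shared promoter windows (odds ratio 0.483, 95% interval 0.367 to 0.633, adjusted exact p = 4.61e-07). In the authors' conservative list were 75.6% of members and 85.4% of shared promoter peaks (odds ratio 0.532, adjusted exact p = 0.000453). A signal at or above the autosomal median of 91.6 was found in 49.9% of members and 64.6% of shared promoter peaks (odds ratio 0.546, adjusted exact p = 1.91e-05). Against single-gene promoter peaks further upstream no difference passed. The shares in both lists were 29.2% of members and 27.2% of those peaks (odds ratio 1.10, 95% interval 0.814 to 1.5, adjusted exact p = 0.709). The shares above the median signal were 49.9% of members and 42.7% of those peaks (odds ratio 1.33, 95% interval 1.01 to 1.75, adjusted exact p = 0.0831). The conservative list held 75.6% of members and 76.4% of those peaks (odds ratio 0.957, adjusted exact p = 0.916). Against all other autosomal peaks none of the 3 measures passed either, with 29.2% of members and 33.8% of the others in both lists (adjusted exact p = 0.0848). The conservative list held 75.6% of members and 79.5% of the others (adjusted exact p = 0.0848), and the shares above the median signal were 49.9% of members and 50% of the others (adjusted exact p = 1). With the caller's q held at or below 0.05 the difference from all others in the share in both lists passed (odds ratio 0.767, adjusted exact p = 0.0382), and so did that in the share in the conservative list (0.605, adjusted exact p = 0.0108). With a distance limit of 200 bp the odds ratio against peaks further upstream turned to 0.747 for both lists, and with windows of 500 bp upstream to 100 bp downstream that against all others turned to 1.06. With these narrower windows the odds ratio for signal against all others passed at 1.28 (adjusted exact p = 0.0230). These are two-sided Fisher's exact tests with Benjamini-Hochberg adjustment over 9, and they compare peaks of 1 list, which are not replicates.

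Summits were denser upstream of the 5′ end than downstream. Upstream lay 393 of 521 (75.4%), with a median position of 113 bp upstream (−113 bp). The definition reaches further upstream than downstream, and 58.2% of the bases where a summit would count as a member were upstream. Per Mb of those bases there were 78.5 members upstream and 35.5 at or downstream of the 5′ end. Members called afresh in replicate 1's own list lay upstream in 149 of 186 cases (80.1%) and in replicate 2's own list in 293 of 359 (81.6%), with medians of −151.5 and −144 bp. All such bases made up 10.4% of the autosomes. Over those bases the density was highest at 150 to 200 bp upstream, with 97.7 members per Mb. In the other steps of 50 bp upstream it was 59.5 to 83.2 per Mb, with 59.5 at 100 to 50 bp upstream and 79.3 in the last 50 bp before the 5′ end. Downstream it was 49.9 per Mb in the first 50 bp, 37.9 in the next, 23.3 at 100 to 150 bp and 30.5 at 150 to 200 bp. Both replicates had their highest density in the same step, with 42.8 per Mb in replicate 1 and 89.2 per Mb in replicate 2. Counted over all these bases, members numbered 60.5 per Mb, against 29.9 other peaks per Mb of the remaining autosomal sequence.

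**Figure D3:**
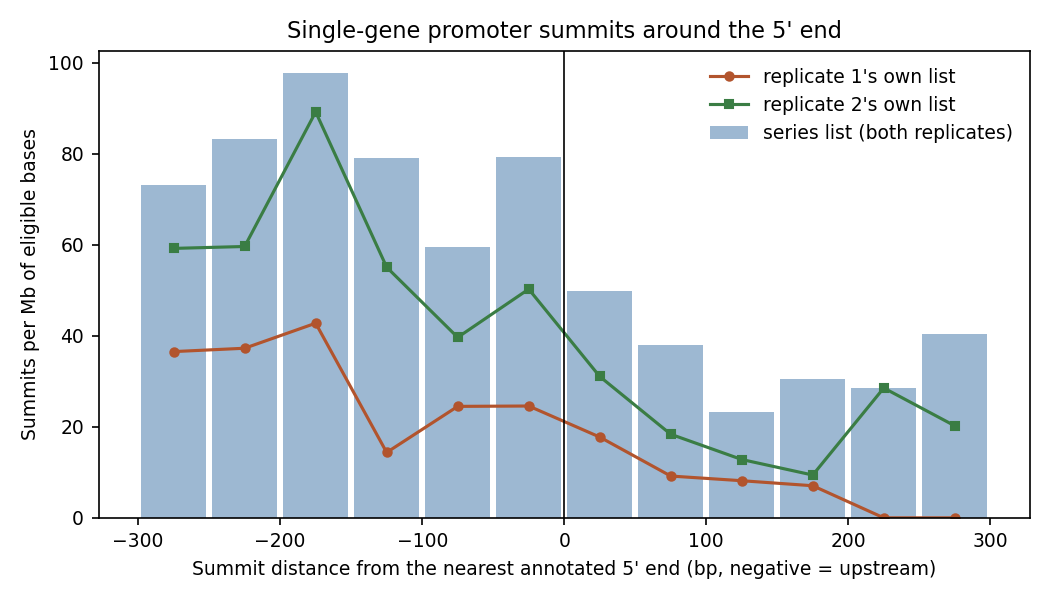
Members per Mb of eligible bases (vertical axis) in steps of 50 bp around the annotated 5′ end (horizontal axis, negative is upstream). Bars show the series list and lines show members called in each replicate's own list, all highest at 150 to 200 bp upstream. The last 2 steps at the right hold 2 members each.

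Upstream members were also the stronger ones. Their median signal was 99.9, against 78.0 for the 128 members at or downstream of the 5′ end, and 33.1% of upstream members were in both replicates' lists, against 17.2% of the others. The summit lay upstream in 90.8% of the 130 strongest members and in 60.3% of the 131 weakest. An annotated exon held the summit in 49 upstream members (12.5%) and in 111 of the others (86.7%). The dinucleotide AG, the end of a splice acceptor, preceded the annotated 5′ end at 241 members. There the median summit position was −161 bp, against −67 bp at the 280 members without it. The median signals of these sets were close, 91.8 with AG and 91.2 without. Among the 490 genes 46.5% had AG before the 5′ end nearest the summit, against 26.1% of the 13988 other genes that could have held a member. The share with an annotated 5′ end at the ATG was 14.1% of genes with a member and 30.2% of the other genes.

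Several genes held more than 1 member, and the second was often faint. There were 23 genes with 2 members and 4 with 3, namely wdr-23, unc-23, gei-4 and D2030.2. Of the 31 neighbouring pairs at 1 gene, 17 had summits 190 to 220 bp apart, 18 had peaks that overlapped, and the closest pair was 199 bp apart. At pck-2 the pair lay at +15 bp with a signal of 392 and at +216 bp with 86.8. In 15 of the 31 pairs the weaker peak had a signal under 20. Across all members 18 had a signal under 20, each of them overlapped by another peak of the list, and the next lowest member had 24.0. The faint member of oma-2, a gene for oocyte maturation, had 14.8 in the series list but 60.9 in replicate 2, where the largest overlapping peak was counted. For these faint members the overlap with a replicate's peak may be an overlap with the neighbour's peak. Among all members 49 were overlapped by another peak of the list, and the same may hold for them. They include the weaker members of kel-3 (48.0) and drap-1 (42.2), both counted in both replicates' lists. Whether the spacing comes from the peak caller was not tested.

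Of 17242 autosomal protein-coding genes, 14478 had bases where a summit would have been a member, and 490 of these (3.38%) held one. Called in each replicate's own list, the share was 1.24% in replicate 1 (180 genes) and 2.37% in replicate 2 (343 genes). The replicates shared 143 genes, which is 79.4% of the genes of replicate 1 and 41.7% of those of replicate 2. The 31 gene lists that follow were described by counts against these shares, with no test. They were defined by gene name patterns, so that a list does not hold every gene of its group, and genes whose promoter windows overlap those of neighbours all along could not enter.

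Among genes of protein synthesis the counts differed between lists. Of 19 eligible genes for large ribosomal subunit proteins 5 held a member, with rpl-3 followed by rpl-24.2 (signal 284, with 109 in replicate 1 and 178 in replicate 2) and rpl-41.2 (280). For the small subunit it was 4 of 12, led by rps-4 (149, with 76.8 in replicate 1 and 70.3 in replicate 2), rps-21 (143) and rps-8 (76.9). All 9 ribosomal summits lay 173 to 297 bp upstream of the annotated 5′ end, further out than the median member. Translation factors had 6 of 24, led by eif-3.C (325) and eif-3.B (154), which encode subunits of an initiation factor, and the exchange factor gene eif-2Bdelta (74.1). The members of eif-3.C and eif-3.B were in both replicates' lists and the other 4 in neither. Mitochondrial ribosomal protein genes had 3 of 42, namely mrpl-28 (208), mrpl-55 (90.4) and mrps-16 (68.4). The list of aminoacyl-tRNA synthetase genes, whose products charge tRNAs, had 0 of 24, but its name pattern left out fars-3, a phenylalanyl-tRNA synthetase gene with a member of signal 80.4.

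Shares in the next lists ran from well above to near the 3.38% of all eligible genes. Oxidative phosphorylation (25%) and the proteasome (28.6%) stood highest, and RNA polymerase and Mediator genes (3.77%) lowest. Oxidative phosphorylation had 5 of 20 eligible genes, with cox-5A at 622 (253 in replicate 1 and 370 in replicate 2), cox-5B at 480 (182 in replicate 1 and 293 in replicate 2) and the complex I subunit gene nuo-2 at 128. The proteasome had 4 of 14, of which rpn-11, the deubiquitylase of the lid, was the strongest at 135 and the only one in both lists. Its companions were the core subunit genes pbs-3 (84.3) and pas-1 (72.2) and the ATPase gene rpt-6 (82.7). Chaperone genes had 3 of 37, with the DnaJ gene dnj-9 at 236, the prefoldin gene pfd-3 at 111 and dnj-10 at 81.0. Nuclear pore and transport genes had 3 of 26, with the importin gene imb-3 at 291 and the nucleoporin genes npp-8 at 188 and npp-20 at 91.3. The splicing factor list had 1 of 19, rsp-6, and RNA polymerase and Mediator genes 2 of 53, taf-10 and rpc-2. The splicing count speaks for its name pattern only, since genes of splicing outside the pattern held members too, among them mog-4, plrg-1 (signal 274), smu-1 (232) and lsm-3 (128).

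Genes of chromatin carried members as well. Of 78 autosomal histone genes only 15 were eligible, and 4 of these (26.7%) held a member, against 3.38% of all eligible genes. Apart from his-37 these 4 encode linker histones and the centromeric histone. Most histone genes could not enter under the definition, so the count does not compare kinds of histone. The linker histone gene hil-4 had a signal of 213 (81.9 in replicate 1 and 133 in replicate 2), hil-5 140, and hcp-3, the centromeric H3 variant gene, 101. The member of hil-5 had no overlapping peak in replicate 1's ranked list and was not in the conservative list. All 4 summits lay within 93 bp upstream of the 5′ end. Of 9 eligible SWI/SNF subunit genes only swsn-3, which encodes an accessory subunit, held a member, at chrIII:2768680-2768999 with 185 in the series list, 72.9 in replicate 1 and 109 in replicate 2. Other chromatin regulators had 10 of 64, led by lin-9, a subunit of the DREAM repressor complex (348, with 134 in replicate 1 and 213 in replicate 2). The methyltransferase genes set-4 (186) and set-2 (115) followed. Of these 10, only lin-9 and set-4 were in both replicates' lists, and 5 were in neither.

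Cell cycle genes had 7 of 45 eligible genes, and 5 of the 7 were in both lists. After cdc-48.1 came pcn-1, which encodes the replication clamp (365, with 132 in replicate 1 and 231 in replicate 2), and mcm-2, a subunit of the replicative helicase (187, with 67.5 in replicate 1 and 123 in replicate 2). The list also held mcm-4, plk-1, cyb-2.2 and rnr-1. Oocyte and maternal genes had 9 of 47. The chitin synthase gene chs-1, which makes the eggshell, had a signal of 273 (109 in replicate 1 and 157 in replicate 2), the eggshell proteoglycan gene cpg-1 236, and egg-1, which encodes an egg surface protein needed for fertilisation, 119. Meiosis genes had 2 of 22, syp-5 (115) and brc-1 (113). The list of Argonautes and small RNA genes had 1 of 25 (4%), csr-1 (94.4), near the 3.38% of all eligible genes. Its name pattern left out gtsf-1.

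Several large somatic and sensory gene families had few or no members. Neuropeptides had 0 of 95, C-type lectins 0 of 196 and nuclear hormone receptors 0 of 233, although replicate 2's own list gave 2 genes of that family. Chemoreceptors had 2 of 1108 (0.181%), srh-2 with a signal of 143 and srbc-58 with 83.1. F-box and MATH-BTB genes had 2 of 305, fbxb-72 (95.0) and fbxa-24 (79.7), cuticle collagens 1 of 124, col-111 (64.2), and detoxification genes 1 of 151, gst-9 (97.3). Muscle genes had 0 of 25 and neuron genes 1 of 52, snt-6 (94.4), both within 1 gene of the count that 3.38% would give. Not all somatic lists were low. Intestine and yolk genes had 3 of 36, lbp-9 (119), cpl-1 (76.1) and spl-1 (72.9), and none of these was in either replicate's list. Homeobox genes had 2 of 55 (3.64%), ceh-99 (97.3) and ceh-83 (71.9), a share near the 3.38% of all eligible genes. Neither member was in both replicates' lists. Actin and cytoskeleton genes had 3 of 21, with the tubulin gene tba-2 (258) above act-3 (71.7) and arx-3 (56.8). Tubulins and actins have close paralogs, but the windows of tba-2 and act-3 held no repeated run of 36 bases. Insulin and TOR genes had 2 of 14, pptr-2 (84.2) and raga-1 (81.4).

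**Figure D4:**
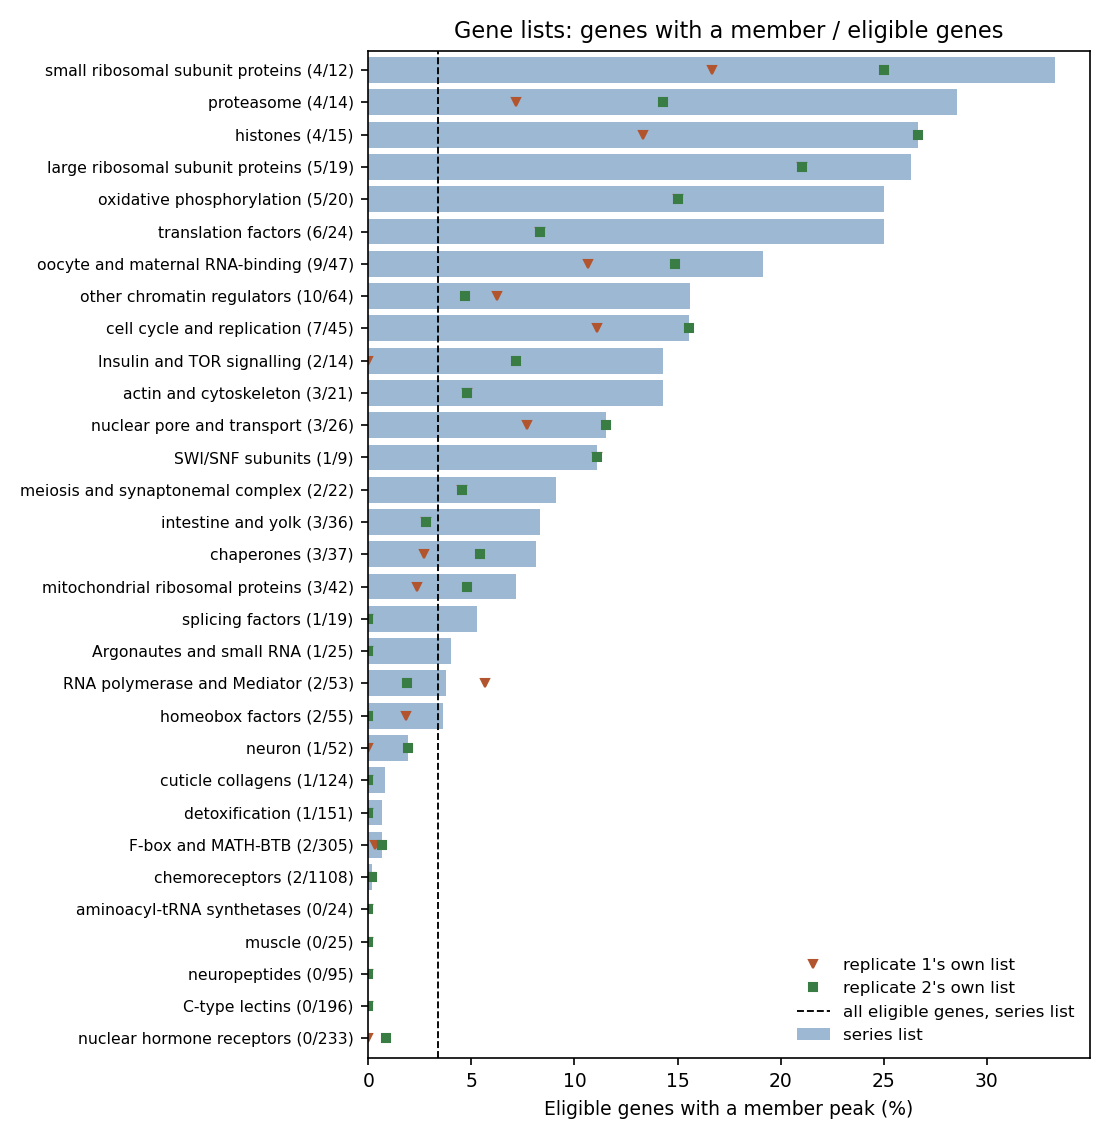
Percentage of eligible genes with a member (horizontal axis) in 31 gene lists (vertical axis), as bars for the series list and points for members called in each replicate's own list. The dashed line is the 3.38% of all eligible genes. Small ribosomal subunit, proteasome, histone and large ribosomal subunit genes stand at the top, and 5 lists have a bar at 0.

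The genes were spread unevenly over the chromosomes. Members occurred at 4.99% of eligible genes on chromosome I and 4.97% on III, at 3.26% on IV and 3.14% on II, and at 1.98% on V, where chemoreceptor genes are concentrated. Whether those genes account for the share on V was not tested. In the middle 50% of the chromosomes 3.73% of eligible genes had a member, against 2.97% in the outer parts. Genes with a member were longer than the other eligible genes (median 2720.5 bp against 2054 bp). They had several annotated transcripts more often (52.2% against 30%) and a shorter gap to the upstream neighbour (703 bp against 1338 bp). A gene with more annotated 5′ ends also offers more windows for a summit.

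The DNA under the summits was GC-rich in a narrow interval. Averaged over 521 members, GC content was 47.7% ± 0.504 (SE) in the 40 bp just downstream of the summit and 46.1% ± 0.498 in the 40 bp just upstream. It was 32.9% ± 0.498 in the 40 bp centred 140 bp upstream of the summit and 35.7% ± 0.525 in those centred 140 bp downstream. The peak in base composition was thus narrower than the width of 320 bp that 89.6% of the peaks were given. In promoters without a summit the same steps just around the matched position had 33.4% and 33.7%. That position was always 113 bp upstream of the 5′ end, whereas an annotated exon held the summit of 160 members (30.7%). In the 40 bp centred 140 bp downstream of that position the promoters without a summit had 40.4%. How far this difference in position enters the contrasts in GC content and in word shares was not tested. Over windows of 100 bp to each side, GC content was 42.1% ± 6.69 (SD) at members and 33.5% ± 6.35 at promoters without a summit. At the members it exceeded the flanks centred 600 bp away by 3.95 percentage points, and in 336 of 521 (64.5%) the summit window was the richer. At promoters without a summit the same difference was −1.72 points. Single-gene promoter peaks further upstream had 43.3% and shared promoter peaks 41.9%, against 42.1% at members, so members were not the richest of these classes.

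**Figure D5:**
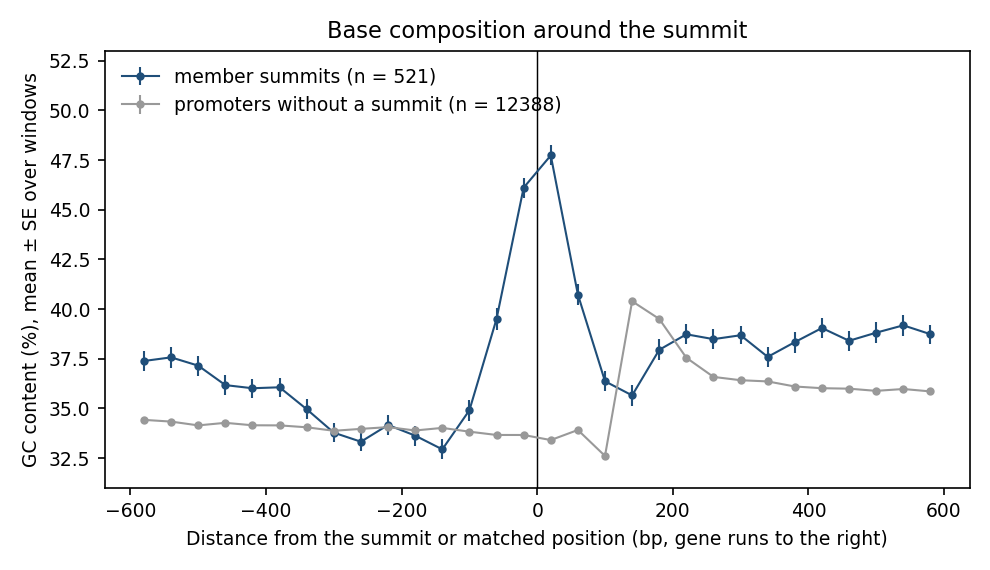
Mean GC content in steps of 40 bp (vertical axis, bars are SE over windows) by distance from the summit of 521 members and from the matched position in up to 12388 promoters without a summit (horizontal axis, in the direction of the gene). Members reach 47.7% beside the summit, and the promoters without a summit stay near 33.5% there and are highest past the 5′ end. The matched position is always 113 bp upstream of the 5′ end, whereas member summits lie on both sides of it.

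GC-rich words were frequent at member summits. Among 18 motifs searched, the E2F-type word had the highest ratio of its share in members to that in promoters without a summit. The letters GCGCGAAA, the core of sites bound by E2F factors, were searched on both strands. They occurred in 29 of 521 members (5.57%), in 1.06% of the flanks, and in 0.638% of promoters without a summit. Among the 152 members in both replicates' lists the share was 11.8%. It was 5.18% in single-gene promoter peaks further upstream and 5.46% in shared promoter peaks. Base composition differed between these sets, so the shares were also read by GC content, a split added after the shares had been seen. Where the window had at least 40% GC, the word was in 6.17% of members and 1.21% of promoters without a summit. Below 40% GC it was in 4.69% and 0.540% of them. A difference in share was present on both sides of this split. At least 40% GC was found in 59.1% of members and 14.7% of promoters without a summit. GC content can still differ within each side, and how far it enters these shares was not tested. Sites of 5 members on the lists of cell cycle genes and chromatin regulators, chosen after the matches had been seen, are printed with the word or its complement in capitals. The windows are centred on the word and run in the direction of the gene.
pcn-1, chrIV:4049603-4049663, minus strand: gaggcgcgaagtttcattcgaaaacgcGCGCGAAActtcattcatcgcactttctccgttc
lin-9, chrIII:8904177-8904237, minus strand: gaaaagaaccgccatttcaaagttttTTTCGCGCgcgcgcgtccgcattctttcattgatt
set-2, chrIII:4930392-4930452, minus strand: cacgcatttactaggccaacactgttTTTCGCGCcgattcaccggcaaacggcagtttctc
isw-1, chrIII:6710102-6710162, minus strand: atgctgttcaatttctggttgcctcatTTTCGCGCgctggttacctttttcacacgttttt
rnr-1, chrIII:9228323-9228383, minus strand: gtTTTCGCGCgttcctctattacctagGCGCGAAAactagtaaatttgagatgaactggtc

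The 29 members with this word had a median signal of 147, against 90 for the other members, and 18 of the 29 were in both replicates' lists. The match lay within 50 bp of the summit in 19 of the 29, and 27 of the 29 summits lay upstream of the 5′ end. Of the 29 genes, 3 were on the cell cycle list, namely pcn-1, mcm-4 and rnr-1, which act in DNA replication. The others include chs-1, tba-2, mrpl-28 and npp-8, which were on other lists, and scc-2, which loads cohesin (signal 280). They also include pole-1, a DNA polymerase epsilon gene (111), and bir-1, a chromosomal passenger gene (73.4). In rnr-1 the word stands on both strands within 1 window, although this member is weak, with a signal of 56.6 in the series list and in neither replicate's list. A stronger member of rnr-1 at another 5′ end had 82.9. A matching word is a description of the letters and not a measured binding site.

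Further words were found by counting all words of 8 letters, after the shares above had been seen. Among those in at least 20 members, GCGCCAGC and GCGTCAGC, which differ by 1 letter, stood furthest above the flanks. GCGCCAGC was in 25 members (4.80%), 2 of 1042 flanks and 0.170% of promoters without a summit. GCGTCAGC was in 21 members (4.03%), 2 flanks and 0.145% of promoters without a summit. Both were concentrated in strong members: GCGCCAGC was in 19 of the 130 strongest (14.6%) and in 0 of the 131 weakest. The window of eelo-2, printed among the strongest sites, holds GCGCCAGC beside its summit. The following sites are a selection from the strong members with either word, outside annotated exons, and not a complete ranking by signal. Some members with either word that are stronger than the last one printed are not shown. Each window is centred on the word and runs in the direction of the gene, with the words in capitals.
ntl-11, chrIV:15471641-15471701, minus strand: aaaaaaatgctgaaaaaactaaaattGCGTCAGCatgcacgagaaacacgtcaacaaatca
pcn-1, chrIV:4049659-4049719, minus strand: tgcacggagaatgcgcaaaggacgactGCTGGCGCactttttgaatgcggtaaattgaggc
C34C12.8, chrIII:3460267-3460327, plus strand: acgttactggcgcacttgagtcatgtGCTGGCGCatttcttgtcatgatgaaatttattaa
W03F8.4, chrIV:5183841-5183901, plus strand: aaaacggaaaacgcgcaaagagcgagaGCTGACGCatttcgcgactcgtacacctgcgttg
fbxl-2, chrIII:4757147-4757207, plus strand: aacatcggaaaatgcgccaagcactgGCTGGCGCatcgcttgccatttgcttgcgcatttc

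Together 40 members held either word (7.68%), and 27 of them (67.5%) were in both replicates' lists, against 29.2% of all members. The word lay a median of 13.5 bp from the summit, and within 30 bp in 29 of the 40. Their genes include eif-3.C, rpl-24.2, dnj-9, cpg-1 and gpd-1, the glyceraldehyde phosphate dehydrogenase gene. E2F-type letters were in 3 of these members as well, among them pcn-1 and fbxl-2. Either word was in 10.5% of shared promoter peaks and 4.66% of single-gene promoter peaks further upstream, against 7.68% of members. The words were selected from these same summits, so no test is given.

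Words typical of AT-rich promoters were rarer at members. TATAAA was in 12.9% of members and 30.3% of promoters without a summit, a run of 6 T (TTTTTT) in 49.9% and 70.8%, and GATAAG in 6.33% and 12.4%. These shares were lower at members on both sides of the split at 40% GC. With at least 40% GC, TATAAA was in 9.74% of members and 17.1% of promoters without a summit. There TTTTTT was in 39.3% and 44.6% of them, and GATAAG in 5.84% and 9.59%. Below 40% GC the shares were 17.4% and 32.6% for TATAAA, 65.3% and 75.3% for TTTTTT, and 7.04% and 12.9% for GATAAG. Words that were more frequent at members were CGCGCG (10.9%, against 1.57%), CGAGACC (8.64%, against 1.85%), CTGCGTC (13.8%, against 3.04%) and GAGAGA (28.2%, against 15.3%). In the same order, with at least 40% GC these shares were 11.7% against 5.43%, 10.1% against 2.25%, 18.5% against 7.57% and 35.4% against 27.6%. Below 40% GC they were 9.86% against 0.909%, 6.57% against 1.78%, 7.04% against 2.25% and 17.8% against 13.2%. The remaining words were GGGCGG (10.6%, against 5.87%), CACGTG (6.72%, against 4.40%), CTCCGCC (4.99%, against 3.54%) and TTCGAA (14.8%, against 11.9%). TTTGAA was in 40.1% of members and 50.9% of promoters without a summit, the acceptor letters TTTCAG in 26.9% and 30.1%, and TTCNNGAA in 11.3% and 12.2%. CGCGCG can overlap GCGCGAAA, and 16 of the 29 members with the E2F-type word held CGCGCG in the window too. CCAAT (29.9%, against 33.6%), TGACTCA (2.88%, against 2.60%) and TGACGTCA (1.34%, against 1.11%) had nearly the same shares in members and in promoters without a summit. Pairs of TT dinucleotides spaced by about 10, 20 or 30 bp were 1.20 times as frequent as pairs spaced by about 5, 15 or 25 bp, against 1.12 times in promoters without a summit. In members of replicate 1's and replicate 2's own lists this ratio was 1.22 and 1.21.

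The 300 bp limit of the definition cut through a continuous set of peaks. Just inside it were smap-1 (300 bp upstream, signal 99.5), rpl-14 (297 bp upstream, 163) and pyp-1 (299 bp downstream, 61.6). Just outside were eri-5 (301 bp upstream, 131), tomm-20 (301 bp upstream, 243) and hcp-1 (302 bp upstream, 146).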

How the data were processed

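The labels describe 2 biological replicates of 1 group, and the peak lists on ce11 were deposited by the authors without header lines. The labels do not state how reads were aligned and filtered or which program called the peaks, nor what was compared for the irreproducible discovery rate (IDR) of the series list. Each peak has a signal value deposited by the authors, a score deposited by the authors as a scaled IDR, and −log10 of the caller's q value, also deposited by the authors. Signal and q were used to describe, rank or filter peaks, and the score was not used beyond the authors' own threshold. In the series list 117 members (22.5%) had a q value above 0.05. Peak lists hold no read depth, so none is given. A member's replicate signal was the largest in that replicate's ranked list among peaks overlapping by at least 1 bp.

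Genes came from Ensembl release 115 (WBcel235, the assembly of ce11) and sequence from the RefSeq copy of it. Promoters without a summit were read 113 bp upstream (−113 bp) of 1 annotated 5′ end of each eligible gene without a member, where no summit lay within 1000 bp. For genes with a member the 5′ end nearest the strongest summit was used, and otherwise the one with most eligible bases. Fisher's exact tests were run with scipy 1.17.1 and Python 3.11.15. The classification was tested on simulated summits. The members, lists, motifs and tests were chosen with earlier results of these data known.

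Named genes are the 15 strongest members, up to 3 of the strongest in each list, the strongest in 1 or neither replicate's list, every SWI/SNF gene, and those nearest the 300 bp limit. Other genes were named after their values had been seen. Alternatives were the conservative list, each replicate alone, q and signal thresholds, peak midpoints, other windows, distances and overlaps, and other noncoding RNA exclusions.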

Additional observations from a re-analysis of the deposited data

How the results depend on the processing

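The share of autosomal peaks that were members (19.1%) was 14.3% with a limit of 200 bp, 21.4% with windows of 500 bp upstream to 100 bp downstream and 13.2% with windows of 2000 bp upstream, and 16.8% to 19.8% in the replicates alone. The share of summits upstream (75.4%) was 74.2% in the conservative list, 80.4% with q at or below 0.05, 87.7% at or above the median signal, 68.4% within 200 bp, 82.5% with the narrower windows, and 80.1% to 81.6% in the replicates. In the same order the median position (−113 bp) was −106, −126.5, −146.5, −53.5 and −127 bp, and −151.5 to −144 bp in the replicates. Genes with a member (490) numbered 258 at or above the median signal and 180 to 343 in the replicates. The share in both lists (29.2%) was 56.2% at or above the median signal, and 43.5% to 81.2% among members called in 1 replicate. Members called in a replicate's own list overlap that list by definition. Their shares are therefore only the overlap with the other replicate's list. The GC excess (3.95 points) was 3.52 to 5.04 in the replicates.

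Within 200 bp, members against single-gene peaks further upstream had odds ratios of 0.747 for both lists (adjusted exact p = 0.0963) and 0.988 for signal (adjusted exact p = 0.947), the opposite direction. Against all others, the odds ratio for both lists was 0.641 within 200 bp (adjusted exact p = 0.000732) and 0.767 with the q filter (adjusted exact p = 0.0382), and for the conservative list 0.605 with the q filter (adjusted exact p = 0.0108). With the narrower windows it was 1.06 for both lists (adjusted exact p = 0.827) and 1.28 for signal (adjusted exact p = 0.0230), the opposite direction. The cause of these changes was not tested. The differences from shared promoter peaks kept direction and threshold in every alternative run. Motif shares were lower with windows of 50 bp to each side, which hold fewer bases. No paired analysis was possible because there is only 1 group. Peak lists give no depth, so absence of a peak at a gene is not evidence that PBRM-1 was absent there.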
